A study of Mus musculus with 2 samples.

Results

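The synaptonemal complex is the protein ladder that joins homologous chromosomes along their length in meiotic prophase. It is built on chromosome axes that hold meiotic cohesin rings, and recombination repairs programmed DNA breaks on these axes. In the testis the genes of this machinery are known as markers of spermatocytes. The genes described here are 10 listed symbols of this machinery in mouse testis cells. They were chosen by name, with earlier results of these data known, and 8 of the 10 could be used. These are Sycp1 (the transverse filament that bridges the 2 axes), Syce2 (central element), Sycp2 and Sycp3 (lateral elements), Hormad1 (an axis protein), Rec8 and Smc1b (meiotic cohesin subunits) and Meiob (a single-strand DNA binding protein needed in recombination).

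Fewer symbols than matrix rows were deposited, so that a symbol was used only where 1 matrix row was possible for it. Stag3, another meiotic cohesin subunit, has 5 possible rows, and Dmc1, the meiotic recombinase, has 13. Both are not analysed here. The 8 used genes are among 5476 symbols with 1 possible row, out of 25065 symbols. Sycp1, Sycp2, Sycp3, Hormad1, Rec8 and Smc1b have 1 possible row whatever rows are allowed to lack a symbol. Syce2 and Meiob have 1 only where rows seen in fewer than 5 cells alone may lack one. Without that rule Syce2 has 2 possible rows and Meiob 24.

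Cells were digested with collagenase I from whole testes of adult C57BL/6 mice (C57BL/6N in the study's methods), either wild type (WT) or with all exons of Tex13a, an X-linked spermatid gene, deleted by CRISPR-Cas9 (KO). Each genotype is 1 library pooled from 3 testes of 3 mice, so that no difference between the genotypes has a replicate check and all intervals given cover counting error only. The cells had been placed by the study in 13 clusters named spermatogonia (Sg), spermatocytes (Sc1 and Sc2) and spermatids (Sd1 to Sd10), with Sd1 described as a mix of spermatocytes and early spermatids. These clusters were made from all genes, the genes of this report included, so that a level in 1 cluster against another is a description.

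The 5170 WT cells hold 45568532 unique molecules (UMIs) and the 7238 KO cells 67734689, with no cell barcode shared. Tex13a has 7 possible rows, of which 1 has no KO UMI and 2295 WT UMIs, and that row cannot check the labels since it would be chosen by its absence in KO. All 8 spermatocyte markers looked for could be used. Their summed level was between 9446 and 10380 CPM (counts scaled to a common total, as parts of 1000000) in Sc2, Sd1 and Sd2 of both libraries, and 6907 CPM in WT and 6571 CPM in KO in Sc1. Most of it was Ldhc in Sc2, Sd1 and Sd2, while in Sc1 of WT Tex101 was at 3139, Ly6k at 1399 and Ldhc at 865 CPM. Piwil1 and Tex101 were at 53.5 and 53.7 CPM in Sd1 of WT against 532 and 850 CPM in Sc2, while Hspa2 was at 748 against 952 CPM. The 9 spermatid markers summed to 7751 CPM in Sd1 against 10812 CPM in Sc2 in WT, so that Sd1 was not set apart from Sc2 by them. Acrv1, an acrosome gene of round spermatids, was at 15.8 CPM in Sc2, 251 CPM in Sd2 and 885 CPM in Sd4 in WT. The spermatid transcript Prm1 was read in Sc1 at 14.1% of its Sd8 level in WT and 14.6% in KO, and in Sg of WT at 13.5%, and its part in the levels below was not tested. Of 3 of the 8 spermatogonial markers that could be used, Kit and Uchl1 were highest in Sg and Stra8, which marks entry into meiosis, in Sc1. Of the other lists, Ctsl and Aard (2 of 7 Sertoli markers) summed to 543 CPM in WT and 594 CPM in KO in Sc1, nearly all of it Ctsl. In the same cluster the 2 of 6 Leydig markers used summed to 3.92 and 10.7 CPM, the 3 of 6 macrophage markers to 12.7 and 6.68 CPM, and the 2 of 3 erythroid markers to 7.84 and 10.7 CPM. None of the 4 endothelial markers could be used. Myh11, the 1 of 4 peritubular markers used, was at 0 in Sc1 of both libraries, where 3 UMIs would be 2.94 CPM in WT and 4.01 CPM in KO.

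Promoters are shown so that the text can be read against the letters. Shown are Sycp1, Sycp2, Sycp3 and Hormad1, all highest in Sc1, and Syce2 and Rec8, both highest in other clusters. Smc1b, also highest in Sc1, is not shown. The promoters are RefSeq windows of GRCm38.p6 from 250 bases before to 50 bases after the transcript start. The first listed start was used, and the letters are written 5′ to 3′ on the gene's strand. Of the 8 used genes, 7 have an entry, and Meiob has none. The Sycp1 window is chr3:102936051-102936350 and the Sycp2 window chr2:178407609-178407908, both on the minus strand. The Sycp3 window is chr10:88459337-88459636, the Hormad1 window chr3:95559427-95559726, the Syce2 window chr8:84871861-84872160 and the Rec8 window chr14:55617916-55618215, all on the plus strand. Capitals mark matches, on either strand, to any of 5 motifs: the E-box CACGTG, the motif CNCCTCAG known for the meiotic entry factor STRA8, the MYB motif TAACNG, the cyclic AMP response element TGACGTCA and the E2F motif TTCCCGCC.
Sycp1: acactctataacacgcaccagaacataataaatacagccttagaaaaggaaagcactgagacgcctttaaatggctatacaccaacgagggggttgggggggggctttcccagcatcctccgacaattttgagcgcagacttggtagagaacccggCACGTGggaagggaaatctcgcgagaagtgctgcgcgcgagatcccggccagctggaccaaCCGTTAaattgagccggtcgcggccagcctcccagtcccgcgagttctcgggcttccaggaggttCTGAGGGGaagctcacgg
Sycp2: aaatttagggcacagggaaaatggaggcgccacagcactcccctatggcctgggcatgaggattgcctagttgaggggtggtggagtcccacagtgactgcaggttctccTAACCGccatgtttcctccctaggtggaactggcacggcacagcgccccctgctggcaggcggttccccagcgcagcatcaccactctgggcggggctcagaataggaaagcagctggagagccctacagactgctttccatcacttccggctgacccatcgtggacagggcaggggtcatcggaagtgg
Sycp3: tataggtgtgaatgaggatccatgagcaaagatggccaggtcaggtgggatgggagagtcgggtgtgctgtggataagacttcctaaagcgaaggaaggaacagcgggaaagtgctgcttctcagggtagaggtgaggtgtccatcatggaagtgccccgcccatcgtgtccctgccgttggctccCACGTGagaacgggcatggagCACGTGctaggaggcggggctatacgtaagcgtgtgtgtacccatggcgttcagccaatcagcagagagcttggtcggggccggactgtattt
Hormad1: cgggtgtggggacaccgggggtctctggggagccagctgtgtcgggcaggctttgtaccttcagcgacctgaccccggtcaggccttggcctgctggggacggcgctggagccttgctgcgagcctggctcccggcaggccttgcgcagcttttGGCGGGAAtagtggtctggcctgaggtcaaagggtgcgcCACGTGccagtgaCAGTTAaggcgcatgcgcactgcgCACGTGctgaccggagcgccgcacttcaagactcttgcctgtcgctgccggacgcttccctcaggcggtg
Syce2: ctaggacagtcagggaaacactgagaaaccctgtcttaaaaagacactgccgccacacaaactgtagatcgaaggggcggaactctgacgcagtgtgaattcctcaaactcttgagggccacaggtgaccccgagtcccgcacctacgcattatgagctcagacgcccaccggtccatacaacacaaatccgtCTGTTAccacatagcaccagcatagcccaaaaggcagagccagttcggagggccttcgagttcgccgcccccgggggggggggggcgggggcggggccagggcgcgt
Rec8: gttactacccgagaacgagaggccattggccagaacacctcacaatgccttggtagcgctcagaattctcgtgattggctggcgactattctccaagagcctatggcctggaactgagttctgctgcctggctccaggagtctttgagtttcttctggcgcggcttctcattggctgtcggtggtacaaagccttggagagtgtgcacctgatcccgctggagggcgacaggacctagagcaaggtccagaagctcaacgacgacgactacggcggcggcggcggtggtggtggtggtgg

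Counting from 0 at the first transcribed base, Sycp3 held CACGTG at positions -64 and -43, Hormad1 at -57 and -20, and Sycp1 at -94. Thus 3 of the 7 windows held this E-box, against 7.25% of 26742 promoter windows of the same length, 1 per symbol. TAACNG was found in 4 of the 7 (Sycp1, Sycp2, Hormad1, Syce2) against 23.2% of all. CNCCTCAG was found in Sycp1 alone, at position 32, against 8.02% of all, and TTCCCGCC in Hormad1 alone, at -96, against 2.25%. TGACGTCA was in none of the 7 and in 1.89% of all. The windows of Rec8 and Smc1b held none of the 5 motifs. Sycp2, whose course had r of 0.97 with Sycp3 and 0.98 with Hormad1 in WT, held no CACGTG, and its TAACNG match was at -140. These matches are descriptions of letters and no binding was measured.

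Sc1 held the highest level of 6 of the 8 genes in both libraries, namely Sycp1, Sycp2, Sycp3, Hormad1, Smc1b and Meiob. Of genes with at least 100 UMIs, 13.1% were highest in Sc1 in the WT library and 12.8% in the KO library. The other 2 genes were highest among the clusters with spermatid names, Rec8 in Sd3 and Syce2 in Sd10, again in both libraries. Sc1 is a small cluster, with 130 WT cells and 1020887 UMIs and 99 KO cells and 749010 UMIs.

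**Figure D1:**
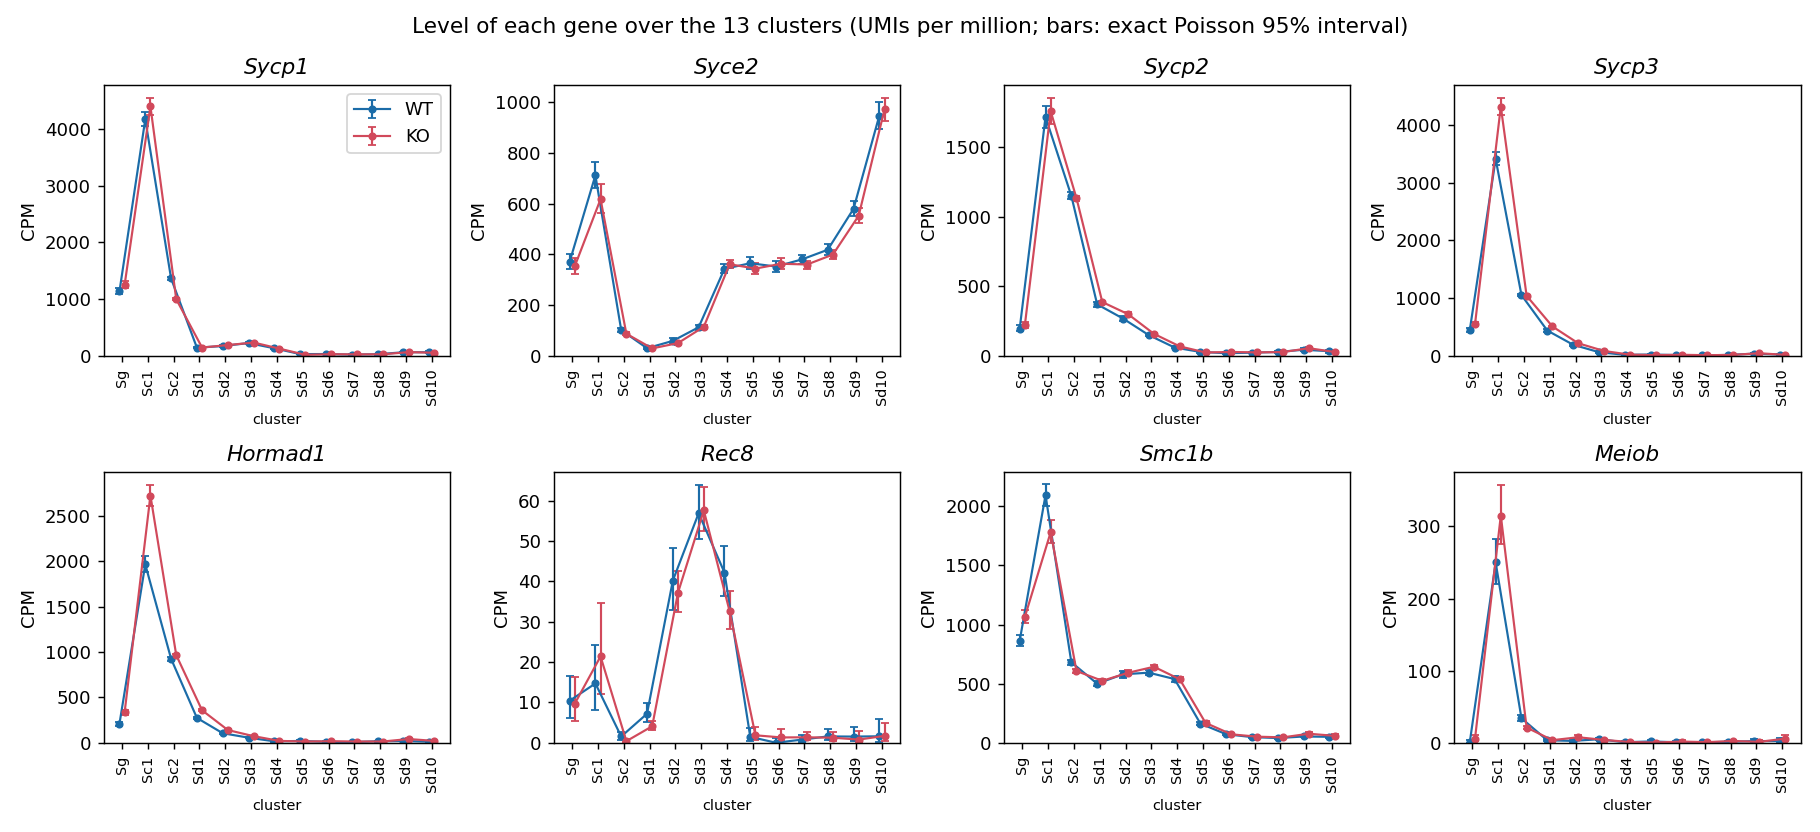
Level of each of the 8 genes in CPM (vertical axis, linear from 0) over the 13 clusters in the study's order, WT in blue and KO in red, with exact Poisson 95% intervals as bars. The lines of 6 genes are highest in Sc1, Rec8 is highest in Sd3 at 56.9 CPM in WT and 57.6 CPM in KO, and Syce2 is high in Sc1 and again from Sd4 to Sd10.

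Sycp1 lies on chromosome 3 from 102818499 to 102936100, minus strand (GENCODE annotation of GRCm38, as for all positions below), with 33 exons in its longest coding transcript. Its level was 1138 CPM in Sg, 4168 CPM in Sc1 and 1366 CPM in Sc2 in WT, and 1254, 4395 and 1000 CPM in KO. It was then 147 CPM in Sd1 and 228 CPM in Sd3 in WT, and 149 and 237 CPM in KO, before it was 33.6 and 20.9 CPM in Sd5. Sycp1 thus had a second, low maximum in Sd3, 1.55 times its Sd1 level in WT and 1.59 times in KO. It was already present in Sg, where Sc1 was only 3.66-fold higher in WT and 3.51-fold higher in KO.

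The lateral element genes Sycp2 and Sycp3 were lower in Sg relative to Sc1 than Sycp1 was. Sycp2 (chromosome 2, 178345293 to 178407685, minus strand) was at 197 CPM in Sg, 1715 CPM in Sc1 and 1149 CPM in Sc2 in WT, and 222, 1756 and 1132 CPM in KO. From Sc1 to Sc2 it was only 1.49-fold lower in WT and 1.55-fold lower in KO, the smallest such step of the 6 genes highest in Sc1. Sycp3 (chromosome 10, 88459569 to 88473236, plus strand) was at 454 CPM in Sg, 3409 CPM in Sc1 and 1054 CPM in Sc2 in WT, and 548, 4315 and 1041 CPM in KO. Both genes then stepped down through the next clusters. Sycp2 was at 371, 269, 150 and 60.9 CPM from Sd1 to Sd4 in WT, and Sycp3 at 441, 195, 66.5 and 20.3 CPM. The last exon of Sycp3, of 331 bases, lies wholly within an exon of Chpt1 on the opposite strand, and the strand setting of the counting is not given in the sources used here, so that reads of the 2 genes there cannot be told apart. Chpt1 had another course, with 56.8 CPM in Sc1 and 538 CPM in Sd10 in WT, where Sycp3 was at 25.5 CPM.

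Hormad1, which marks unsynapsed axes (chromosome 3, 95559677 to 95587671, plus strand), followed the course of Sycp3. It was at 209 CPM in Sg, 1967 CPM in Sc1, 926 CPM in Sc2 and 274 CPM in Sd1 in WT, and at 335, 2726, 966 and 358 CPM in KO. Over the 13 clusters, Pearson's r of Hormad1 with Sycp3 was 0.99 in WT, on log2(CPM + 1). The points share cells, depth and clustering, so that r is a description only. By the same measure Sycp2 had r of 0.97 with Sycp3 and Sycp1 0.92, while Syce2 had -0.33 and Rec8 0.35.

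Meiob (chromosome 17, 24804289 to 24839788, plus strand) had the largest share of UMIs in Sg, Sc1 and Sc2 among the 8 genes, 86.8% in WT and 76.3% in KO. In WT it had 2 UMIs in Sg (1.22 CPM), 255 UMIs in Sc1 (250 CPM, 95% interval 220 to 282) and 242 UMIs in Sc2 (29.9 to 38.6 CPM). In KO it had 8 UMIs in Sg (5.52 CPM), 236 UMIs in Sc1 (315 CPM, 276 to 358) and 268 UMIs in Sc2 (21.1 CPM). Its level in every later cluster was between 0.308 and 7.62 CPM over both libraries. Sg, where Sycp1 was at 27.3% and Smc1b at 41.2% of their Sc1 level in WT, thus held almost no Meiob UMI. The Meiob course rests on the rule for naming rows, without which 24 rows are possible for this symbol.

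The 2 cohesin subunits did not share a course. Smc1b (chromosome 15, 85064689 to 85131964, minus strand) was at 864 CPM in Sg, 2095 CPM in Sc1 and 681 CPM in Sc2 in WT, and 1065, 1782 and 607 CPM in KO. It then stayed level over 4 clusters, at 500, 579, 593 and 539 CPM from Sd1 to Sd4 in WT and 524, 592, 643 and 537 CPM in KO. In Sd5 it was at 162 and 168 CPM, and in Sd8 at 39.6 and 45.7 CPM. More of its UMIs lay in the clusters Sd1 to Sd10 (56.2% in WT, 64.8% in KO) than in Sg, Sc1 and Sc2, though these 10 clusters hold 78.6% and 78.0% of all UMIs.

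Rec8 (chromosome 14, 55618037 to 55625395, plus strand) was sparse and had its highest level late. In WT it had 17 UMIs in Sg (10.4 CPM), 15 in Sc1 (14.7 CPM, 95% interval 8.22 to 24.2) and 11 in Sc2 (1.55 CPM, 0.772 to 2.77). It then had 38 UMIs in Sd1 (7.19 CPM), 110 in Sd2 (40.2 CPM), 280 in Sd3 (56.9 CPM, 50.4 to 64.0) and 185 in Sd4 (42.2 CPM). In KO the same clusters gave 9.67, 21.4, 0.393, 4.09, 37.2, 57.6 and 32.6 CPM. Its 3 highest clusters, Sd2 to Sd4, lay within Smc1b's plateau, though in Sd1, where that plateau began, Rec8 was still low. Over all 13 clusters r of Rec8 with Smc1b was 0.72 in WT. In Sd5 it was at 1.46 CPM in WT and 1.85 CPM in KO, and in Sd6 the WT library had no Rec8 UMI, where 3 UMIs would be 1.04 CPM. All genes highest in Sd3 make up 7.46% of genes in WT.

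Syce2 (chromosome 8, 84872111 to 84888221, plus strand) had its levels at both ends of the series of clusters. In WT it was at 370 CPM in Sg and 711 CPM in Sc1 (95% interval 660 to 765), then at 10.8% of its highest level in Sc2 and 30.6 CPM in Sd1 (26.1 to 35.7). It was at 343 CPM in Sd4, 365 in Sd5, 352 in Sd6, 380 in Sd7, 418 in Sd8, 579 in Sd9 and 946 CPM in Sd10 (893 to 1001). In KO it was at 617 CPM in Sc1, 29.9 CPM in Sd1, 361 CPM in Sd4 and 970 CPM in Sd10. Sd10 was thus 30.9-fold above Sd1 in WT and 32.4-fold in KO. Genes highest in Sd10 make up 8.27% of genes in WT. This course rests on the rule for naming rows. If any row may lack a symbol, Syce2 can also stand for the row before, which was highest in Sd1, at 1247 CPM in WT and 1241 CPM in KO, and at 36.7 and 39.7 CPM in Sd10.

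The share of cells with a UMI was read after each cell was thinned to 3000 UMIs, and Sd8 was taken as a cell type that should lack these transcripts. In Sc1 a Sycp3 UMI was found in 130 of 130 WT cells and 97 of 99 KO cells (98.0%), against 4.69% of WT and 4.46% of KO cells in Sd8. The median depth was 6212.5 UMIs in WT and 6395 UMIs in KO cells of Sc1, and 5254 and 5269.5 UMIs in Sd8. Hormad1 was found in 93.8% and 97.0% of Sc1 cells against 4.69% and 4.59% in Sd8, and Smc1b in 92.3% and 86.9% against 10.7% and 10.7%. Meiob was found in 46.2% of WT cells (95% interval 37.4 to 55.1) and 50.5% of KO cells (40.3 to 60.7) of Sc1, against 0.485% and 0.765% in Sd8. Unthinned, these Meiob shares of Sc1 cells were 59.2% and 62.6%. Rec8 in Sd3 was found in 14.3% of WT and 15.2% of KO cells against 0.809% and 0.255% in Sd8, with median depths in Sd3 of 7179 and 7625 UMIs. In Sc2 it was found in 0.615% and 0.446% of cells, at the level of Sd8.

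Sd8 cannot serve as the low cell type for Syce2, which was found there in 72.8% of WT and 69.9% of KO cells. Taking Sd1 instead, where it was found in 10.1% and 9.65% of cells, Syce2 was found in 92.9% of WT and 91.7% of KO cells of Sd10, with a median of 3 UMIs per thinned cell in both libraries. The late Syce2 signal was thus spread over nearly all cells of that cluster.

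Counting genes within single cells, a thinned Sc1 cell held UMIs of a median of 6 of the 8 genes in each library. At least 6 of the 8 were found in 76.9% of WT and 81.8% of KO cells of Sc1. The same held for 9.13% and 12.9% of cells in Sg, 23.0% and 19.4% in Sc2, and 0.78% and 1.61% in Sd1. From Sd5 to Sd10 a cell held a median of 1 of the 8 genes. The gene found most often there was Syce2, in 67.1% of WT cells in Sd5 and 92.9% in Sd10. Smc1b, the next, was found in 34.9% and 12.5%. The spread within Sc1 was wide for single genes. Sycp1 ranged from 2 to 38 UMIs per thinned WT cell (median 11.5) and from 0 to 37 per KO cell (median 13).

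**Figure D2:**
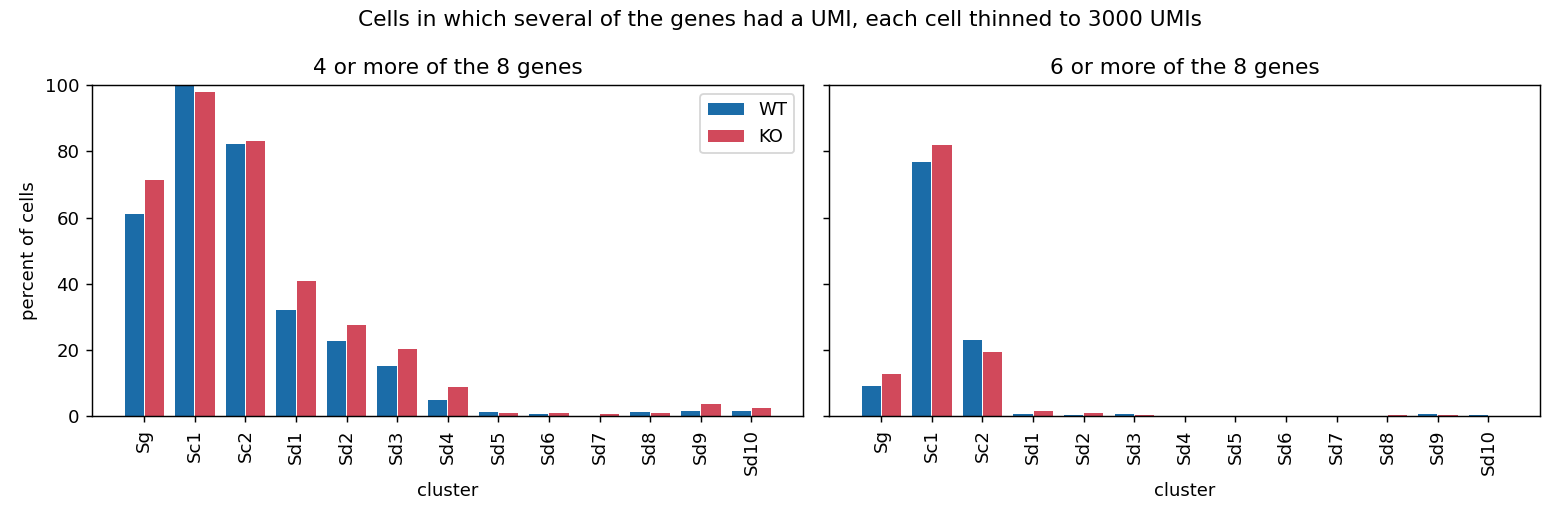
Percent of cells (vertical axis, from 0) in which at least 4 (left) or at least 6 (right) of the 8 genes had a UMI after thinning to 3000 UMIs, by cluster, WT in blue and KO in red. Sc1 stands out with 76.9% of WT and 81.8% of KO cells at 6 or more genes.

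Sc1 cells fell on both sides of Stra8, which is needed for entry into meiotic prophase. After thinning, 75 of 130 WT cells (57.7%, 95% interval 48.7 to 66.3) and 43 of 99 KO cells (43.4%, 33.5 to 53.8) held a Stra8 UMI. Few cells lay near this limit, as 9 of the WT and 4 of the KO cells with a Stra8 UMI held only 1 or 2. This division was chosen after the data were seen, and median depth on its sides was between 6043 and 6890 UMIs.

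The 8 genes divided into those higher with Stra8 and those higher without it. Smc1b was at 2716 CPM in WT cells with Stra8 and 1090 CPM in those without, and at 2675 and 973 CPM in KO. Syce2 was at 908 against 392 CPM in WT and 842 against 412 CPM in KO. All Rec8 UMIs of Sc1 lay in cells with Stra8, 15 of 15 in WT and 16 of 16 in KO. The other 5 genes were higher in cells without Stra8 in both libraries. Meiob was at 105 CPM with and 485 CPM without Stra8 in WT, and at 87.0 and 522 CPM in KO. Sycp3 was at 2391 and 5056 CPM in WT and 2501 and 5960 CPM in KO, and Hormad1 at 1380 and 2917 CPM in WT and 1353 and 3972 CPM in KO. Sycp1 was at 3252 and 5651 CPM in WT, and Sycp2 at 1496 and 2070 CPM. The spermatocyte marker Hspa2 was at 108 CPM with and 477 CPM without Stra8 in WT, and Prm1, a spermatid transcript, at 18676 and 27877 CPM.

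**Figure D3:**
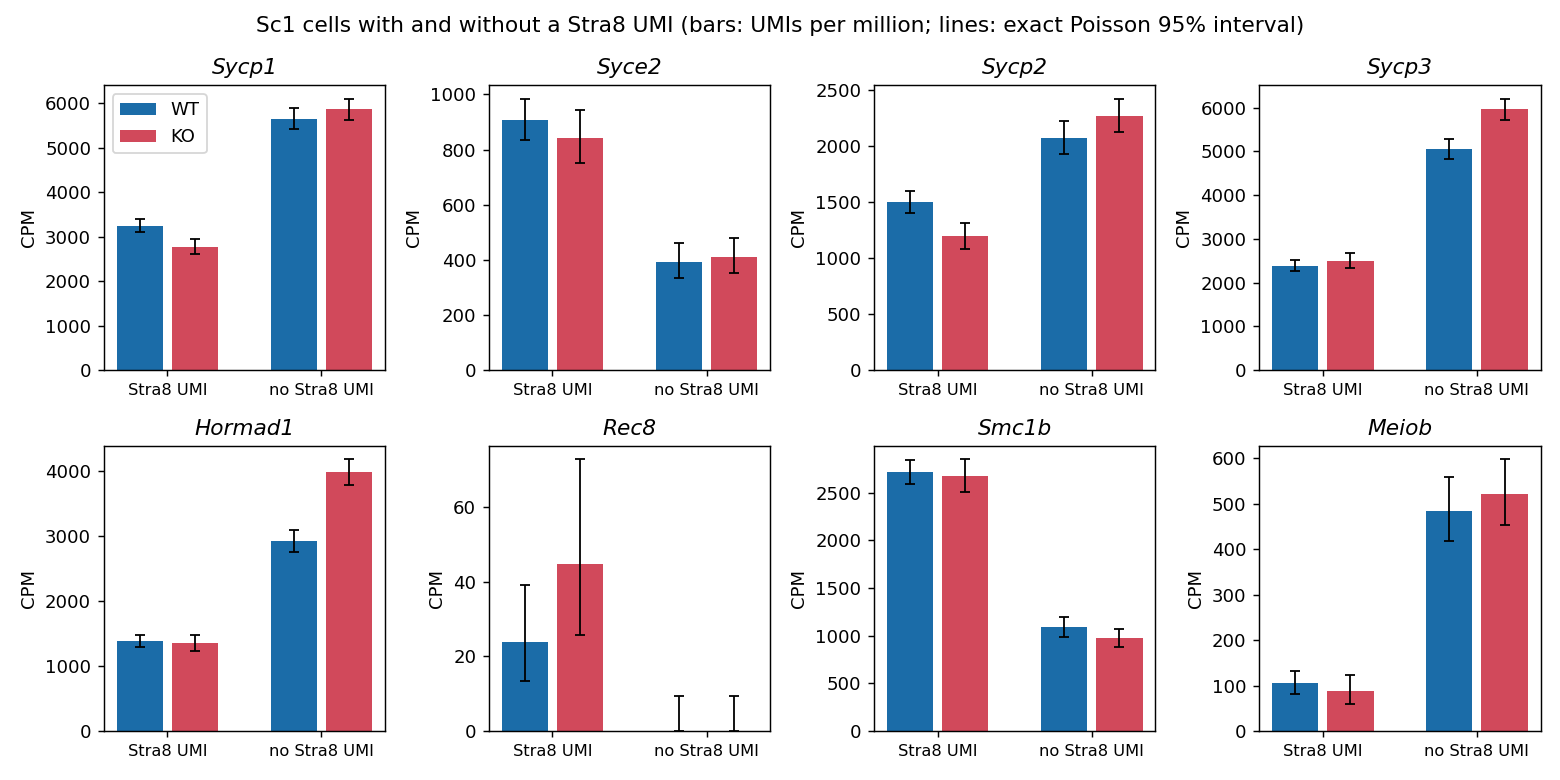
Level of the 8 genes in CPM (vertical axis, linear from 0) in Sc1 cells with at least 1 Stra8 UMI and with none after thinning to 3000 UMIs, WT bars in blue and KO bars in red, with exact Poisson 95% intervals as lines. Syce2, Rec8 and Smc1b are higher in cells with Stra8, and the other 5 genes in cells without it.

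The comparison of KO with WT asks whether loss of Tex13a, which is known as a spermatid gene, goes with other levels of the meiotic genes. In Sc1 none of the 8 genes was 2-fold apart, where 4.94% of 4289 genes read were (at least 10 UMIs in both libraries together). The median log2 ratio of KO to WT was 0.21 over the 8 genes and 0.03 over all genes read. Hormad1 had the ratio farthest above 0 among the 6 genes with at least 1000 UMIs, at 0.47 (95% interval 0.38 to 0.56), followed by Sycp3 at 0.34 (0.27 to 0.41). Smc1b was lower in KO at -0.23 (-0.33 to -0.13) and Syce2 at -0.21 (-0.38 to -0.04). Sycp1 was at 0.08 (0.01 to 0.14), Sycp2 at 0.03 (-0.07 to 0.14), Meiob at 0.33 (0.07 to 0.60) and Rec8, with 31 UMIs, at 0.52 (-0.57 to 1.66).

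Intervals above 0 were found for 4 of the 8 genes and for 7.39% of all genes read in Sc1, and intervals below 0 for 2 of the 8 and for 6.02%. Deeply counted genes leave 0 more often. Among 235 genes with at least 1000 UMIs in Sc1, the interval lay above 0 in 18.7% and below 0 in 25.5%, against 3 and 2 of the 6 genes of this machinery. Their median ratio was 0.06, and that of the 235 genes -0.02. Of those 235 genes, 8.09% were at least 1.2-fold higher in KO, Hormad1 and Sycp3 among them, a limit chosen after the data were seen.

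**Figure D4:**
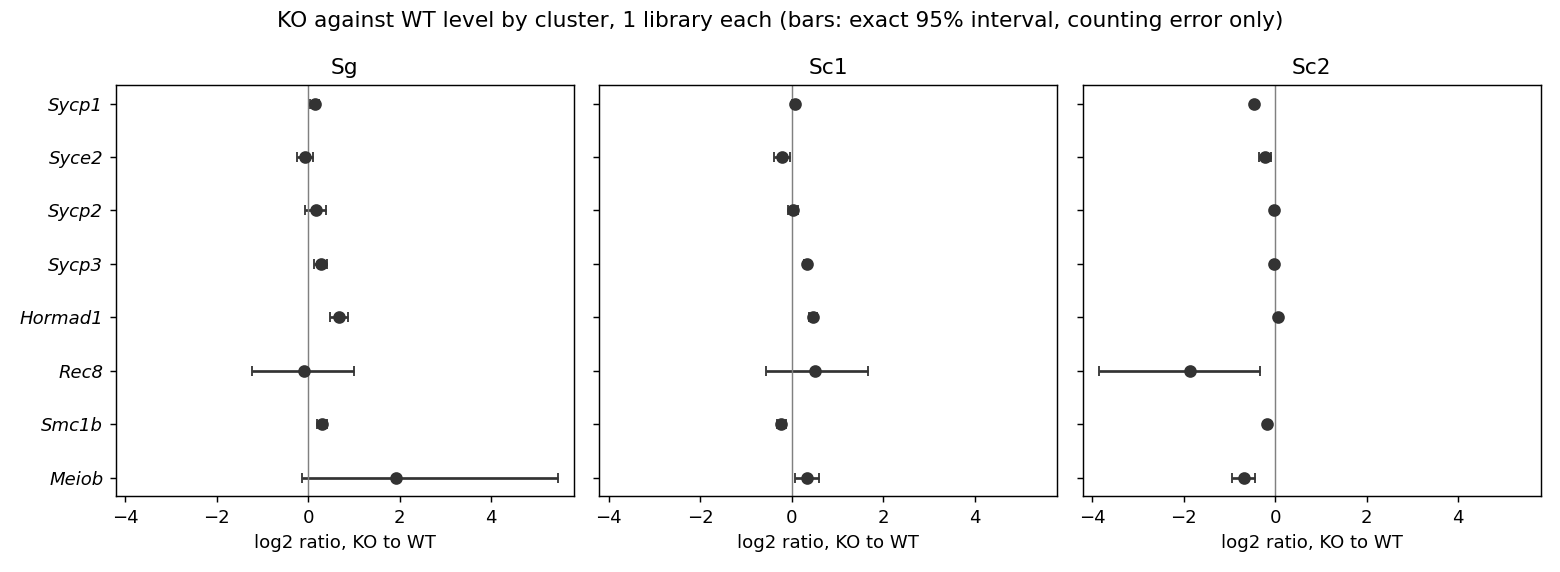
Log2 ratio of KO to WT (horizontal axis) of the 8 genes in Sg, Sc1 and Sc2, with exact 95% intervals for counting error as bars and a grey line at 0, from 1 library per genotype. Of the Sc1 points, Hormad1 at 0.47 and Smc1b at -0.23 lie on either side of 0, and the intervals of Rec8 and Meiob are wide where they have few UMIs.

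The share of Sc1 cells with Stra8 differed between the libraries, and the ratios were therefore also read on each side. Smc1b, lower in KO over all Sc1 cells, was at -0.02 (-0.14 to 0.09) in cells with Stra8 and -0.16 (-0.37 to 0.04) in those without. Syce2 was at -0.11 and 0.07, with both intervals across 0, and Meiob at -0.26 and 0.11, likewise. Hormad1 was at -0.03 (-0.19 to 0.13) with Stra8 and at 0.45 (0.33 to 0.56) without it, and Sycp3 at 0.06 (-0.06 to 0.19) and 0.24 (0.15 to 0.32). The higher KO levels of Hormad1 and Sycp3 in Sc1 were thus seen in the cells without Stra8, though the difference between the sides was not tested. In cells with Stra8, Sycp1 was at -0.23 (-0.34 to -0.12) and Sycp2 at -0.33 (-0.49 to -0.16), and without Stra8 they were at 0.05 (-0.03 to 0.14) and 0.13 (-0.01 to 0.27). Rec8 with Stra8 was at 0.89 (-0.19 to 2.04).

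In Sg, Hormad1 was at 209 CPM in WT and 335 CPM in KO, a log2 ratio of 0.68 (0.48 to 0.88). Smc1b was at 0.30 (0.20 to 0.41), Sycp3 at 0.27 (0.13 to 0.42) and Sycp1 at 0.14 (0.05 to 0.23). Hormad1 and Sycp3 were higher in KO in Sg as in Sc1. Of the 8 genes, 1 was 2-fold apart in Sg, against 3.99% of genes read. It was Meiob, with 2 and 8 UMIs and a ratio of 1.92 whose interval was -0.14 to 5.45. The median over the 8 genes was 0.22 in Sg, and 0.01 over all genes read.

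In Sc2 the ratios lay the other way for several genes. Sycp1 was at 1366 CPM in WT and 1000 CPM in KO, a ratio of -0.45 (-0.49 to -0.41), and Meiob, with 242 and 268 UMIs, had a ratio of -0.69 (-0.95 to -0.44), which was -0.17 with each cell thinned to 3000 UMIs. Smc1b was at -0.17 (-0.22 to -0.11) and Syce2 at -0.23 (-0.36 to -0.09). The lateral element genes were near 0, both at -0.02 (-0.06 to 0.02). Hormad1 was at 0.06 (0.02 to 0.10), and at 0.21 with each cell thinned to 3000 UMIs. Rec8, with 11 and 5 UMIs, was the 1 gene of the 8 that was 2-fold apart, against 3.56% of genes read. Intervals lay below 0 for 5 of the 8 genes and for 23.2% of genes read, and above 0 for 1 of the 8 and for 16.5%. Among 2419 genes with at least 1000 UMIs in Sc2 the shares were 25.3% below and 28.7% above, against 3 and 1 of 6 genes of this machinery. The median was -0.20 over the 8 genes and -0.05 over all genes read.

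The spermatocyte markers Tex101 and Ly6k were also lower in the KO cells of Sc2. Tex101 was at 850 CPM in WT and 599 CPM in KO, and Ly6k at 408 and 333 CPM. Of the 8 spermatocyte markers 5 were lower, the others being Piwil1 (532 and 441 CPM), Hspa2 (952 and 874 CPM) and Prss50 (5.91 and 2.04 CPM), and 3 were higher, namely Ldhc (7320 and 7543 CPM), Pgk2 (185 and 223 CPM) and Ccna1 (126 and 143 CPM). Sc2 held 488 WT cells (9.44% of the library) and 896 KO cells (12.4%). The part of these differences in the ratios of Sycp1 and Meiob was not tested.

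Past Sc2, Hormad1 stayed above WT in KO through Sd1 (274 and 358 CPM, ratio 0.38, 0.30 to 0.47), Sd2 (105 and 140 CPM, 0.42, 0.22 to 0.62) and Sd3 (56.1 and 72.4 CPM, 0.37, 0.16 to 0.58). Sycp3 did so at 0.21, 0.18 and 0.38. In Sd5 the ratios lay the other way, with Sycp3 at 25.6 CPM in WT and 15.1 CPM in KO (70 and 49 UMIs, -0.75, -1.32 to -0.21). Sycp1 was at -0.68 there (-1.16 to -0.21), and Hormad1 was at -0.54 (-1.15 to 0.06) in Sd5 and -0.27 (-0.80 to 0.25) in Sd8. In Sd8, taken above as a type that should lack these transcripts, Sycp3 was at 18.8 CPM in WT and 19.6 CPM in KO. Hormad1 was at 16.4 and 13.6 CPM there. The Sd5 levels of Sycp3 lay near this background, whose part in the Sd5 ratios was not tested. Over the 13 clusters and 8 genes, 96 of 104 pairs of gene and cluster had at least 10 UMIs, and 5 of the 96 were 2-fold higher and 1 was 2-fold lower in KO. Of all such pairs over all genes, 4.09% were 2-fold apart. The 5 higher pairs were Meiob in Sg, Sd2 and Sd10 and Hormad1 in Sd7 (33 and 81 UMIs, 1.08) and Sd9 (50 and 105 UMIs, 1.10). In Sd7 Hormad1 was at 6.42 CPM in WT and 13.7 CPM in KO, below or near its Sd8 levels. At the late end, Syce2 in Sd10 was at 946 CPM in WT and 970 CPM in KO. Rec8 in Sd3 was at 0.02 (-0.20 to 0.24).

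Beyond the 8 genes, 77 other listed symbols were found among the deposited symbols, and 37 of them could be used. The lists covered synapsis, cohesin, recombination, telomeres and the nuclear envelope, the sex body, meiotic entry and pachytene transcription. In WT 21 of the 37 were highest in Sc1, 6 in Sg, 7 in Sc2 and 3 in clusters with spermatid names. Of all genes with at least 100 UMIs in WT, 13.1% were highest in Sc1, 12.8% in Sg and 11.3% in Sc2. In KO 33 of the 37 had the same highest cluster, and the same share over all genes was not taken. Of the other synaptonemal complex genes, the central element genes Syce3 (488 CPM in WT, 477 in KO) and 4930447C04Rik (784 and 689 CPM) were highest in Sc1, and Syce1 in Sd1 (661 and 693 CPM). Of the cohesin genes, the shared core subunit Smc3 was highest in Sc1 (775 and 712 CPM), the mitotic kleisin Rad21 in Sg (145 and 164 CPM) and the loader Nipbl in Sd1 (1584 and 1740 CPM). The break-forming enzyme Spo11 was highest in Sc2 (143 and 138 CPM), while Ankrd31, needed for break formation, was highest in Sc1 (306 and 298 CPM). The strand exchange cofactors Swi5 (902 and 955 CPM), Sfr1 (774 and 709 CPM) and Brca2 (366 and 332 CPM) were highest in Sc1, and Psmc3ip in Sc2 (463 and 420 CPM).

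In Sc1 the intervals of KO to WT lay above 0 for 4 and below 0 for 3 of the 37 listed genes, with a median of -0.05. Of all genes read there, 7.39% lay above and 6.02% below 0. Among the 4 were the cohesin release factor Wapl (0.40, 0.11 to 0.68), Fignl1 (0.54, 0.01 to 1.07) and Ythdc2 (0.30, 0.0 to 0.59). The intervals of Fignl1 and Ythdc2 barely left 0. The 3 were Ccdc36, the single-strand DNA binding subunit Rpa2 (-0.50, -0.86 to -0.15) and 4930447C04Rik (-0.19, -0.35 to -0.02). Ccdc36, an axis partner of Hormad1, was at 68.6 CPM in WT and 24.0 CPM in KO (-1.49, -2.35 to -0.75). Ccdc36 was the only one of the 37 that was 2-fold apart, against 4.94% of genes read. In Sc2 the intervals lay above 0 for 6 and below 0 for 12, with a median of -0.05, against 16.5% above and 23.2% below of all genes read. Of the 37, 2 were 2-fold higher in KO in Sc2, where 3.56% of genes read were 2-fold apart. They were Stra8 (15 and 63 UMIs, 1.21, 0.40 to 2.15) and the meiotic gene Tex11 (3 and 12 UMIs, 1.07). The Tex11 interval of -0.73 to 3.63 includes 0. Dazl, an RNA binding protein of early germ cells, was lower in KO there at -0.81. So were Rpa2, as in Sc1, at -0.75 (-0.98 to -0.52) and Hormad2, the paralog of Hormad1, at -0.69.

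The genes most like the mean course of the 8, by Pearson's r over the 13 WT clusters among 4816 genes, were Slc31a1 (0.975), Mon2 (0.974), Strbp (0.971), Sdhaf3 (0.971) and Stx16 (0.968). All 5 were highest in Sc1 in both libraries, and their r in KO was between 0.927 (Stx16) and 0.967 (Slc31a1). The mean includes Syce2 and Rec8, which had other courses. Taken singly, Sycp1 was most like Ythdc2 (0.979), Sycp3 like H2-K1 (0.983), Hormad1 like Cenpq (0.985), Smc1b like Rfc4 (0.987) and Meiob like Gml2 (0.949). In KO the lowest of these r was 0.896, of Meiob with Gml2. Syce2 was most like Pkm (0.961), which was highest in Sd10, and Rec8 like Tmem243 (0.969), which was highest in Sd3. The courses of each of the 8 genes in WT and KO had r between 0.929 (Meiob) and 0.998 (Syce2) with each other.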

How the data were processed

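RNA of single testis cells was measured in 1 library per genotype. Reads were mapped by the authors to mm10 with STAR 2.5.3a and assigned to Ensembl genes with featureCounts 1.6.2, and cells were clustered in Seurat 3.2.3. The deposited matrix holds raw UMI counts per gene row and cell. The authors' cell table gives each cell's library, cluster, UMI count and percent of mitochondrial UMIs.

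The matrix has 26758 rows and the symbol list 25065. The 30 mitochondrial symbols were matched to rows whose sums gave the deposited percent exactly in 12408 of 12408 cells. Between them, only rows seen in fewer than 5 cells could lack a symbol, which left 1 possible row for 5476 symbols with 86.9% of UMIs. Without the rule 2648 symbols had 1. The rule was contradicted in 0 of 31 intervals. This is a weak check, as the mitochondrial rows had been sought under the same rule over the whole matrix.

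CPM were taken from the UMI sums of each cluster in each library, with exact Poisson intervals. Log2 ratios used a prior of 1 UMI over both libraries, at least 10 UMIs together, and exact conditional binomial intervals. Shares have exact binomial (Clopper-Pearson) intervals, at a level of 95%. No cell was left out, no doublet caller was run and no test was made. Genes named beside the 8 were, by rule, the most alike, and those of the lists that were extreme or counted. The values of 1 listed gene are not reported here. Members and lists were chosen with earlier results of these data known. The ratio was tested on simulated data. Python 3.11.15, NumPy 2.4.6 and SciPy 1.17.1 were used.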

Additional observations from a re-analysis of the deposited data

Results flagged for a closer look

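Over Sg, Sc1 and Sc2, the KO to WT ratio of 3 genes had intervals on opposite sides of 0 in different clusters. The same share over all genes was not taken. Among genes with at least 1000 UMIs, intervals lay above 0 in 18.7% and below 0 in 25.5% in Sc1. In Sc2 these shares were 28.7% and 25.3%. The difference between the clusters was not tested, and with 1 library per genotype it has no replicate check. Sycp1 had log2 ratios of 0.14 in Sg, 0.08 in Sc1 and -0.45 in Sc2. Smc1b had 0.30 in Sg, -0.23 in Sc1 and -0.17 in Sc2. Meiob had 0.33 in Sc1 and -0.69 in Sc2, and the Sc2 value was -0.17 with each cell thinned to 3000 UMIs. In Sc1 cells with and without Stra8, Smc1b was at -0.02 and -0.16, and Meiob at -0.26 and 0.11. All of these intervals lay across 0. Sycp1 was at -0.23 (-0.34 to -0.12) with Stra8 and 0.05 (-0.03 to 0.14) without it. Over all 13 clusters, Sycp3 also had intervals above 0 (0.27 in Sg, 0.34 in Sc1) and below 0 (-0.75 in Sd5). In Sd5 it was at 25.6 CPM in WT and 15.1 CPM in KO, near its Sd8 levels of 18.8 and 19.6 CPM.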

How the results depend on the processing

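Genotype and library cannot be told apart here, as each genotype is 1 pooled library, and intervals cover counting error only. Of 183 alternative values of single genes in Sg, Sc1 and Sc2, 170 stayed within their counting interval and 13 moved, and 0 of those whose interval excluded 0 changed sign. Of ratios with intervals across 0, Rec8 in Sg (-0.10) was 0.25 as the mean of single-cell CPM and 0.13 without the 5% of cells with most UMIs, Syce2 in Sg (-0.07) was 0.02 in thinned cells, and Sycp2 and Sycp3 in Sc2 (-0.02) reached 0.03. The alternatives were the mean of single-cell CPM, centred ratios, totals without mitochondrial genes, a prior of 10 UMIs, a minimum of 50 UMIs or no filter, cells thinned to 3000 UMIs and the 5% of cells with most UMIs left out. The 6 genes highest in Sc1 kept that count in both libraries under every scaling tried. In Sg the count of genes 2-fold apart was 0 with a prior of 10 UMIs, with a minimum of 50 UMIs, in thinned cells and without the 5% of cells with most UMIs. In Sc2 it was 0 with a minimum of 50 UMIs and in thinned cells. The median ratio in Sc1 was 0.08 with a minimum of 50 UMIs and 0.09 in thinned cells. In Sc2 it was -0.15 with centred ratios and -0.15 in thinned cells. The median percent of Sc1 cells with a UMI over the 8 genes in KO was 97.0 unthinned, against 90.4 thinned. Where any row may lack a symbol, 6 of the 10 genes have 1 possible row.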
